A study of Mus musculus with 9 samples.

Results

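The acute-phase genes followed here are 7 of the 24537 gene names with a row in the deposited tables: Lcn2, Hp, Orm1, Saa3, Cp, Serpina3n and Ptx3. They were picked by name as acute-phase genes, with Lcn2 at their head, after the counts of both comparisons below had been seen. Their values therefore chose them, so they are given without p-values, and whether a member met a criterion is stated as a description only, beside the share over all genes. The study's methods name male C57Bl/6JCrl mice, operated on when 8 to 10 weeks old, and tissue was taken 12 weeks later. The groups were heart after sham surgery (sham heart), quadriceps muscle after sham surgery (sham quadriceps) and quadriceps muscle after transverse aortic constriction (TAC quadriceps), with 3 libraries each. In TAC the aorta is narrowed to a set 27 gauge width, which puts the left ventricle under lasting pressure overload, and the study used it to model failing hearts with wasting of the body. No transgene or genetic deletion was involved, no TAC heart library was analysed here, and each library is from whole tissue. The third TAC library is numbered 4 in the table although the labels run to 3, and it is called TAC library 4 here.

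Acute-phase proteins are plasma proteins whose production changes with injury, infection or inflammation. In the liver, interleukin 6 and interleukin 1 act through STAT3, NF-kB and C/EBP factors to switch on most of them, and other cells such as adipocytes, macrophages, endothelial cells and myofibers can make some of them as well. Lcn2 (lipocalin 2) binds iron-loaded siderophores, Hp (haptoglobin) captures free hemoglobin, Cp (ceruloplasmin) is a copper-carrying ferroxidase, and Orm1 (orosomucoid) is a small carrier protein of the lipocalin family. Saa3 is a serum amyloid A protein made mainly outside the liver, Serpina3n is a serine protease inhibitor, and Ptx3 is a long pentraxin that binds complement C1q.

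Total counts per library were 23383452 to 32989108 for sham quadriceps, 33102826 to 38382751 for sham heart, and 48614494 and 48999600 for TAC libraries 1 and 2. The depth of TAC library 4 was not derived here. The tissue labels were borne out by marker genes. The summed level of 4 cardiomyocyte markers was 26949 to 29423 CPM (counts scaled to a common library size with TMM) in sham heart and 7.57 to 9.74 in sham quadriceps. The summed level of 4 skeletal muscle markers was 58330 to 85914 CPM in sham quadriceps and 1147 to 1328 in sham heart. TAC library 4 stood apart in the hepatocyte gene Alb (albumin), with 1259 counts against 1 and 4 in the other TAC libraries and 3 to 53 in the sham quadriceps libraries. It was also lowest in 3 red blood cell markers, of a list of 5, at a sum of 492 normalized counts (defined below). The other TAC libraries were at 2259 and 2731, and sham quadriceps at 1658 to 1973. TAC results are given without TAC library 4 where it matters.

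The starts of 5 members, in 6 windows of 300 bases, were matched in the RefSeq promoter table of build GRCm38.p6. The stretches shown belong to the member with the largest difference after TAC (Lcn2), the member with a lower mean after TAC (Ptx3) and a classic acute-phase gene whose groups overlapped (Serpina3n). Each holds 260 bases, running 5′ to 3′ from 250 bases before the transcript start, and capitals mark matches to the motifs searched on both strands. Those motifs were the NF-kB site, the C/EBP site written as TTGCNNAA, the STAT site written as TTCNNNGAA and the TATA box written as TATAAA.
Lcn2: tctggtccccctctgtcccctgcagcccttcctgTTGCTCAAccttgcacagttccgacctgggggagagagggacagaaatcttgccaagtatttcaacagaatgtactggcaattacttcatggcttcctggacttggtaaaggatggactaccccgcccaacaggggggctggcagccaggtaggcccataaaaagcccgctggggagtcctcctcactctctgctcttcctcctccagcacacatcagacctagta
Ptx3: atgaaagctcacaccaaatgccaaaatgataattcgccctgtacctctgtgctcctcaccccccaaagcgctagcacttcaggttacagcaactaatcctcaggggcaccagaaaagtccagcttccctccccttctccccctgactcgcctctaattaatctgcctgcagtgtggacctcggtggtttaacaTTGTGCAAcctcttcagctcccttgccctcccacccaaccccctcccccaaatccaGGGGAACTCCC
Serpina3n: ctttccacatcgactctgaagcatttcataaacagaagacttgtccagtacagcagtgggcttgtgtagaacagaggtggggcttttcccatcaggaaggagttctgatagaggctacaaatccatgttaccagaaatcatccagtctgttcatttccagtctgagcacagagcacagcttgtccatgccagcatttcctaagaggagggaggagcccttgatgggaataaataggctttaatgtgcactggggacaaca
The Lcn2 stretch is chr2:32387730-32387989 on the minus strand, the Ptx3 stretch is chr3:66219637-66219896 on the plus strand, and the Serpina3n stretch is chr12:104406458-104406717 on the plus strand. Lcn2 held a C/EBP match that begins 216 bases before the start. Ptx3 held a C/EBP match 57 bases before the start and a pair of overlapping NF-kB matches of which the outer begins 1 base before it. Saa3 held a C/EBP match 99 bases before its start. In the second of the windows of Cp a C/EBP match lay 70 bases before the start, with a pair of overlapping TATA-box matches beginning at 27 and 25 bases. Serpina3n held no match, and no STAT match was found in the windows of the 5 members. Of 32851 promoters of the same length, 10.8% held the C/EBP motif, 8.46% the NF-kB motif, 8.3% the STAT motif and 13.6% the TATA box.

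Lcn2 was much higher in TAC quadriceps than in sham quadriceps. The gene lies at chr2:32384633-32388252 on the minus strand (GRCm38), is protein coding and has 6 exons in the transcript matched. Normalized counts (counts divided by the TMM-scaled size of the library) were 7.32, 8.08 and 8.25 in sham libraries 1 to 3 and 121, 201 and 73.1 in TAC libraries 1, 2 and 4. The lowest TAC library thus stood far above the highest sham library. These values rest on 6 to 9 raw counts in each sham library and 73 to 205 in each TAC library. The means were 7.88 ± 0.498 (SD, n = 3) and 132 ± 64.4 (SD, n = 3), a log2 fold change of 4.05 with a standard error (SE) of 0.45, or 16.6-fold. Against the sham mean, the difference was 15.4-fold in TAC library 1, 25.4-fold in library 2 and 9.27-fold in library 4. The TAC libraries varied more for Lcn2 than for most secreted-protein genes: the highest was 2.74 times the lowest, beside a median of 1.68 times over the 586 genes tested.

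**Figure D1:**
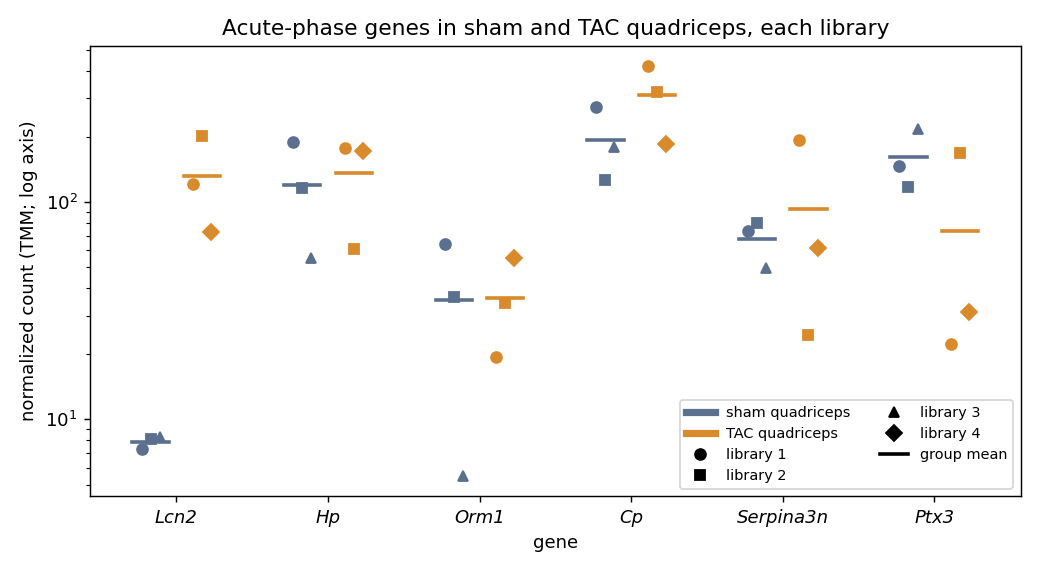
Normalized counts (log axis) of 6 acute-phase genes in the 3 sham and 3 TAC quadriceps libraries, with the library number as marker shape and the group mean as a line. Lcn2 lies between 7.32 and 8.25 in sham and between 73.1 and 201 in TAC, while the groups of the other genes overlap.

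Among the 6 members of the TAC table, Lcn2 alone met the study's criterion, an absolute log2 fold change of at least 1 with an unadjusted p under 0.05. Over all 586 genes tested, 11.4% met it with a higher level in TAC. Lcn2 was also the single member whose groups did not overlap, beside 47.3% of all genes. Nothing is read from these shares, since the members were chosen on the same values. Saa3 has no row in the TAC table, so its level after TAC was not analysed here.

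Because the TAC table lists secreted-protein genes, its scaling rests on those genes. The study's methods took as secreted the genes assigned to the Gene Ontology class for the extracellular region. The genes called secreted here therefore include others, such as Ckm, Pecam1 and the hemoglobin genes. When counts were divided by the library totals instead, for the 5 libraries whose total was derived, the median log2 fold change of all genes moved from 0.03 to -0.63. Under that scaling Lcn2 was at 3.69, Cp at 0.25, Serpina3n at 0.04, Hp at -0.72, Orm1 at -1.15 and Ptx3 at -1.41 on the log2 scale. That fit also lacks TAC library 4, without which Hp was at -0.10 with TMM. Lcn2 was far above the median of all genes under both scalings.

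In sham tissue Lcn2 was low, and lower in quadriceps than in heart. Its RPKM (counts divided by transcript length and library total) was 0.326, 0.287 and 0.304 in the sham quadriceps libraries and 0.735, 0.863 and 0.858 in the sham heart libraries. No quadriceps library reached the lowest heart library. The log2 fold change of quadriceps over heart was -0.67 (SE 0.30) with TMM and -1.41 with library totals, where the median of all transcripts was -0.80. These values rest on 6 to 9 counts in quadriceps and 23 to 28 in heart. Lcn2 did not meet the study's criterion between the tissues, which is given below. In TAC quadriceps libraries 1 and 2 the RPKM of Lcn2 was 3.04 and 4.95, above the sham heart values.

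Lcn2 is also a granule protein of neutrophils. None of 11 neutrophil markers has a row in the TAC table, so their level after TAC was not analysed here. In the sham tissues the summed level of these 11 markers was 0.418 to 0.735 CPM in quadriceps and 0.596 to 0.769 in heart, with Camp, Mpo and Elane at 0 counts in each of the 6 libraries. The 5 macrophage markers of the TAC table, of a list of 10, summed to 796 to 1059 normalized counts in sham quadriceps and 364 to 442 in TAC quadriceps. The 5 fibroblast markers, of 6, summed to 9959 to 12749 in sham and 6086 to 9179 in TAC. The 2 endothelial markers, of 4, summed to 917 to 1048 in sham and 1504 to 1589 in TAC. Most of the fibroblast sum was Dcn (decorin), whose groups overlapped at 5974 to 7443 in sham and 5382 to 8623 in TAC, while the collagen genes Col1a1, Col1a2 and Col3a1 and the proteoglycan gene Lum were lower in TAC without overlap. The endothelial difference was seen with TMM, where Pecam1 was at 0.63 and Vwf at 0.83 on the log2 scale, but with library totals they were at -0.02 and 0.09. All 5 macrophage markers were lower in TAC under both scalings. Their part in the Lcn2 result was not tested. In such bulk samples, fewer cells of a type and less RNA per cell cannot be told apart.

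The genes of the TAC table most like Lcn2 over the 6 quadriceps libraries were Gpx3, Pcmt1, Il4ra, Adm and Adamtsl4. Likeness was Pearson's r of log2 CPM, and the values were 0.986 for Gpx3, 0.985 for Pcmt1, 0.98 for Il4ra, 0.98 for Adm and 0.976 for Adamtsl4. With 3 low and 3 high libraries, r mostly reflects the step between the groups. Gpx3, the secreted glutathione peroxidase, was at 2992 ± 181 normalized counts in sham and 9981 ± 839 in TAC (SD, n = 3 each). Adm, the vasodilator peptide adrenomedullin, had its highest count in TAC library 2 and its lowest TAC count in library 4, the same order as Lcn2, with 122, 178 and 81.1 normalized counts in TAC libraries 1, 2 and 4. Il4ra, the interleukin 4 receptor chain, was at 246, 223 and 146 in these libraries. The differences of Pcmt1 and Adamtsl4 were smaller, with log2 fold changes of 0.47 and 0.96 that fell short of the study's criterion. None of the other members ranked among these genes: r with Lcn2 was 0.64 for Cp, 0.15 for Orm1, -0.01 for Hp, -0.09 for Serpina3n and -0.53 for Ptx3.

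Hp and Orm1 differed widely between libraries of the same group, and their group means after TAC were close to those of sham. Hp lies at chr8:109575128-109579172 on the minus strand and Orm1 at chr4:63344560-63348163 on the plus strand. Normalized counts of Hp were 188, 116 and 55.0 in sham libraries 1 to 3 and 176, 60.7 and 171 in TAC libraries 1, 2 and 4. The log2 fold change of Hp was 0.17 (SE 0.51), and leaving out 1 library at a time moved it between -0.16 and 0.63. Orm1 was at 64.2, 36.4 and 5.50 in sham and at 19.4, 34.3 and 55.1 in TAC, in the same library order. For Orm1 the log2 fold change was -0.01 (SE 0.67), with a leave-one-out range of -0.56 to 0.69. Both genes therefore had no stable direction after TAC.

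Adipocyte markers moved with Hp from library to library. Both genes are known to be made by fat as well as liver. Adipoq (adiponectin) was at 962, 429 and 129 normalized counts in sham libraries 1 to 3 and at 523, 114 and 708 in TAC libraries 1, 2 and 4. Cfd (adipsin) was at 1021, 516 and 129 in sham and at 1125, 225 and 1425 in TAC. Together with Retn (resistin), these 3 markers of a list of 7 summed to 315 to 2302 in sham and 415 to 2860 in TAC. Hp and the 3 markers were highest in library 1 and lowest in library 3 among the sham libraries, and lowest in library 2 among the TAC libraries. Orm1 followed the same order in sham, but in TAC its lowest library was library 1. The part of adipocytes in the levels of Hp and Orm1 was not tested.

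**Figure D2:**
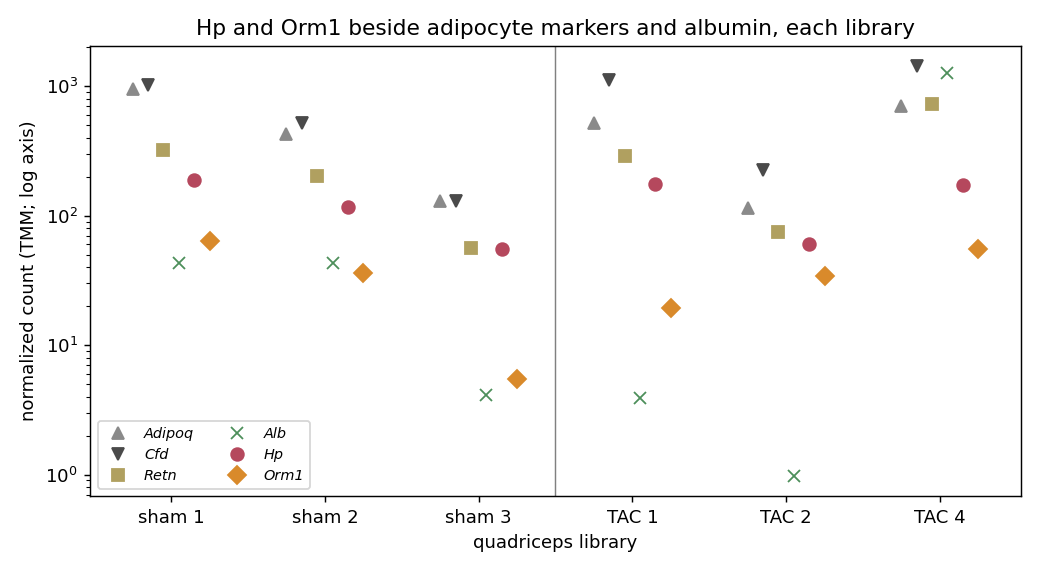
Normalized counts (log axis) of Hp, Orm1, 3 adipocyte markers (Adipoq, Cfd, Retn) and Alb in each quadriceps library. Hp is lowest where the adipocyte markers are lowest, in sham library 3 (55.0) and TAC library 2 (60.7), and Alb reaches 1261 in TAC library 4.

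The hepatocyte gene Alb, the single one of 7 hepatocyte markers in the TAC table, was at 1261 normalized counts in TAC library 4. That library also had the highest Orm1 of the TAC group. Without TAC library 4, the log2 fold change was -0.56 for Orm1, -0.10 for Hp and 4.24 for Lcn2. In the sham quadriceps libraries, Fgb (fibrinogen beta chain) was counted 5, 8 and 0 times, and Serpina1a 2, 1 and 0 times. Both were at 0 in sham heart. Apoa1 had 8, 13 and 0 counts in quadriceps and 2, 2 and 0 in heart. Ahsg was lower in quadriceps, with 8, 5 and 1 counts there and 52, 33 and 13 in heart. Apoa2 had 18, 27 and 8 counts against 20, 39 and 22, and Ttr 7, 6 and 0 against 7, 7 and 4. These are raw counts, not scaled to library size, so they give no direction for Apoa2 and Ttr. The part of liver RNA was not tested.

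Between the sham tissues, Hp and Orm1 were higher in quadriceps. RPKM of Hp was 5.65, 2.78 and 1.37 in quadriceps and 0.819, 0.562 and 0.314 in heart, a log2 fold change of 3.26 (SE 0.48). Orm1 counts were 79, 36 and 4 in quadriceps but 1, 1 and 0 in heart. Pooled over the 3 libraries of each tissue, its ratio of quadriceps to heart was 122 with TMM, with an exact 95% interval of 33.0 to 1018 that covers counting error only, and 72.5 (19.6 to 606) with library totals. The groups did not overlap for either gene. Without sham quadriceps library 1 or 2 the fit could not test Orm1, because a single library then passed the count minimum. Adipoq had 1183, 425 and 94 counts in these quadriceps libraries and 26, 13 and 7 in the heart libraries, so this adipocyte marker was also higher in quadriceps. The other markers of the list were also higher in quadriceps, except Fabp4. Cfd had 1256, 511 and 94 counts in quadriceps and 28, 11 and 4 in heart. Plin1 had 119, 43 and 9 against 13, 5 and 5. Fabp4 had 10777, 4839 and 3193 counts in quadriceps and 11118, 14306 and 13072 in heart. The sum of all 7 adipocyte markers, most of it Fabp4 in each library, overlapped, at 198 to 528 CPM in quadriceps and 235 to 305 in heart. The part of adipocytes was not tested. The Orm1 count is uncertain to the extent that 20.4% of the 50-base stretches of its transcript also occur in Orm2, although Orm2 itself was counted in 1 of the 6 libraries, with 2 counts.

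Saa3 was close to the limit of detection in sham tissue. The gene lies at chr7:46711998-46715700 on the minus strand. Its counts were 1, 14 and 0 in sham quadriceps and 0, 2 and 1 in sham heart. A single library, sham quadriceps 2, therefore held most of its counts, and Saa3 did not pass the filter of more than 5 counts in at least 2 libraries. The pooled ratio of quadriceps to heart was 10.2 with TMM, with an exact 95% interval of 2.90 to 55.2 for counting error alone, and 6.10 (1.72 to 32.9) with library totals. Sequence shared with its neighbour Saa1 was small, at 1.78% of 50-base stretches. Saa1 had 7, 6 and 1 counts in quadriceps and 0, 1 and 0 in heart.

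Cp was the member with the highest level in sham heart. The gene spans chr3:19957054-20009145 on the plus strand, with 20 exons, and Hps3 overlaps it on the minus strand. Whether counting used the strand is not given in the sources used here, so reads of Cp and Hps3 in the shared stretch cannot be told apart. RPKM of Cp was 12.6, 17.6 and 14.98 in sham heart and 2.27, 0.835 and 1.22 in sham quadriceps. The heart libraries lay well above the quadriceps libraries, and the log2 fold change of quadriceps over heart was -2.65 (SE 0.27). The other 2 transcripts of Cp gave -2.52 and -2.64 from nearly the same reads. After TAC, normalized counts of Cp were 420, 321 and 185 in libraries 1, 2 and 4, against 274, 126 and 179 in sham libraries 1 to 3. The groups overlapped, with a log2 fold change of 0.68 (SE 0.38) that stayed between 0.31 and 0.99 when 1 library was left out.

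Serpina3n libraries overlapped between all 3 groups. It lies at chr12:104406729-104414329 on the plus strand. Normalized counts were 73.2, 79.8 and 49.5 in sham libraries 1 to 3 and 193, 24.5 and 61.1 in TAC libraries 1, 2 and 4. One TAC library was above and another below every sham library. The log2 fold change was 0.45 (SE 0.63), and it was -0.725 without TAC library 1 and 0.90 without TAC library 2. Its RPKM was 1.84, 1.23 and 1.64 in sham heart and 1.33, 1.15 and 0.741 in sham quadriceps, with a log2 fold change of quadriceps over heart of 0.22 (SE 0.23) with TMM and -0.53 with library totals. The sign between the tissues thus depended on the scaling. Serpina3n belongs to a cluster of near copies, and 6.9% of its 50-base stretches occur in other genes, which leaves its count uncertain to that extent.

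Ptx3 was lower in 2 of the 3 TAC libraries. It lies at chr3:66219910-66225805 on the plus strand, with Veph1 overlapping on the minus strand, and the same limit on strand applies. Normalized counts were 147, 117 and 217 in sham libraries 1 to 3 and 22.3, 167 and 31.0 in TAC libraries 1, 2 and 4. TAC library 2 lay within the sham range and the other TAC libraries well below it. The log2 fold change was -1.12 (SE 0.69), and it was -2.58 without TAC library 2. TAC library 2 was also the library with the highest Lcn2 and the lowest Serpina3n of the TAC group. In sham tissue Ptx3 was higher in quadriceps, with 2.89, 1.83 and 3.52 RPKM against 0.310, 0.313 and 0.347 in heart. The tissues were far apart relative to their spread, with a log2 fold change of 3.82 (SE 0.26).

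**Figure D3:**
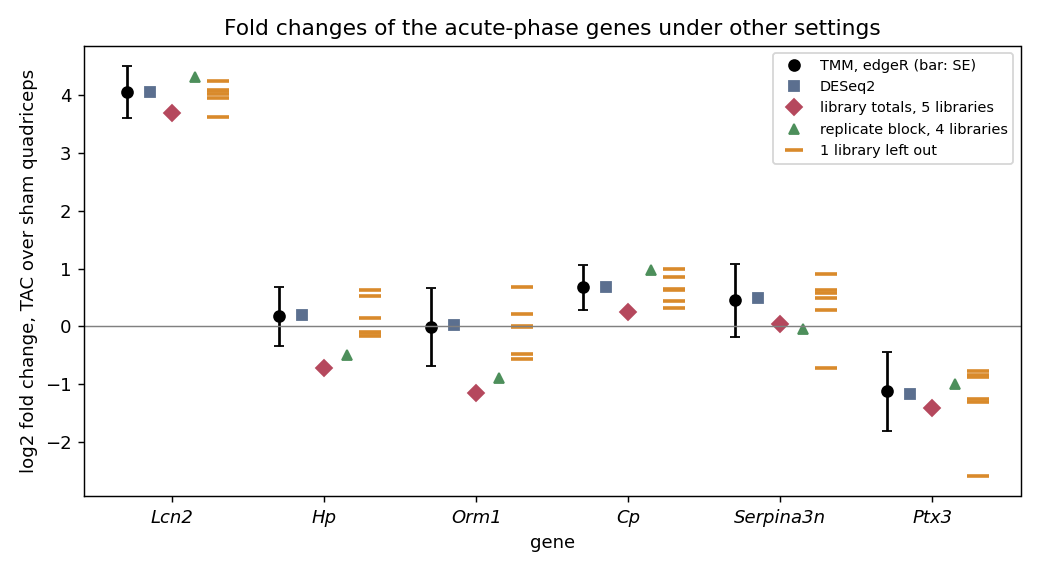
Log2 fold change of TAC over sham quadriceps for 6 acute-phase genes under the main fit (black, bar SE), DESeq2, library totals, the replicate block and each of 6 fits without 1 library. Lcn2 stays between 3.61 and 4.32, Ptx3 is always below 0, Cp always above 0, and Hp, Orm1 and Serpina3n lie on both sides of 0.

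Across members, levels per length gave a different order in each group. In sham quadriceps mean RPKM ran from Hp (3.27 ± 2.18) over Ptx3 (2.75 ± 0.854), Orm1 (1.59 ± 1.47), Cp (1.44 ± 0.744) and Serpina3n (1.07 ± 0.301) to Lcn2 (0.306 ± 0.0197) and Saa3 (0.289 ± 0.451), each with SD and n = 3. Neighbours in this order overlapped, except Serpina3n and Lcn2. In sham heart Cp (15.05 ± 2.51) came ahead of Serpina3n (1.57 ± 0.314) and Lcn2 (0.819 ± 0.0729), and these 3 did not overlap. Hp (0.565 ± 0.253) overlapped both Lcn2 above and Ptx3 (0.323 ± 0.0206) below it, and Saa3 and Orm1 were last at 0.0523 ± 0.0498 and 0.0229 ± 0.0199. In the 2 TAC quadriceps libraries whose RPKM was used, Lcn2 was first of the 6 members at 3.04 and 4.95, above Hp at 2.99 and 1.01, in libraries 1 and 2 in that order. Among the transcripts tested in sham quadriceps, Lcn2 ranked at the 22.4th percentile and Hp at the 64.8th.

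**Figure D4:**
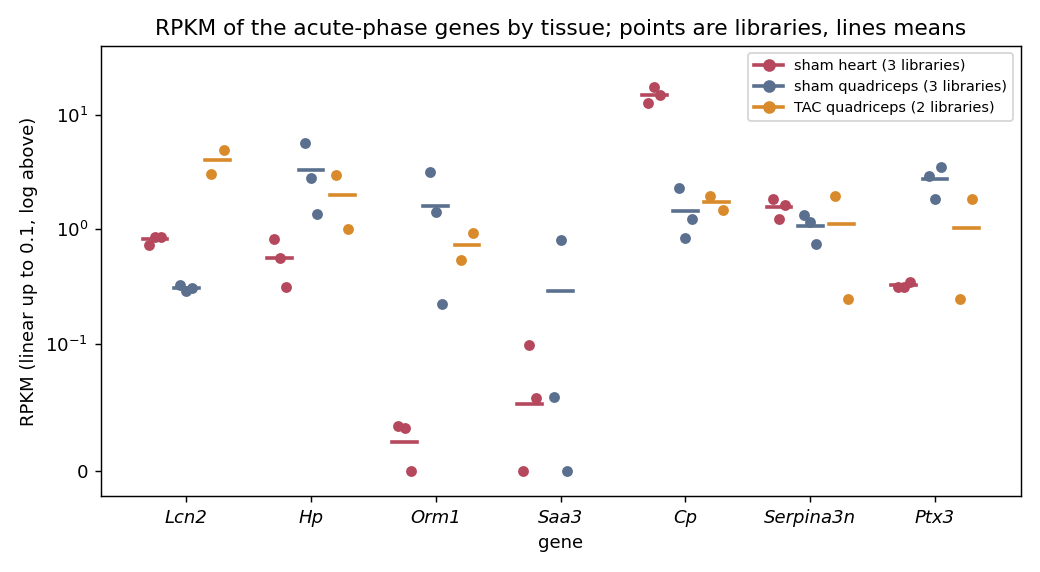
RPKM of the 7 members (linear up to 0.1, log above) in sham heart, sham quadriceps and TAC quadriceps, with points for libraries and lines for means. Saa3 has no TAC values. Cp is highest in heart (12.6 to 17.6), and Hp, Orm1 and Ptx3 are higher in sham quadriceps than in sham heart.

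Between sham quadriceps and sham heart, 6 members passed the count filter. The study asked for a level in quadriceps that was higher by more than 2 on the log2 scale, at an unadjusted p under 0.05, and the same limits are applied here to lower levels as well. Hp, Orm1 and Ptx3 met them with a higher level in quadriceps, which 7.0% of the 24280 transcripts did, and Cp with a lower level, which 8.64% did. Groups did not overlap for 5 of the 6, all but Serpina3n, beside 72.6% of all transcripts. Here too the members' values had been seen when they were chosen. With library totals, the median log2 fold change of all transcripts moved from -0.06 to -0.80, while the members read 2.53 for Hp, 5.84 for Orm1, 3.08 for Ptx3 and -3.38 for Cp. The sham quadriceps libraries serve in both comparisons, which are therefore not independent.

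Genes around the members were read from lists of other acute-phase genes, cytokines and receptors upstream, binding partners, iron and copper genes and other lipocalins. These lists were drawn up with earlier results of these data known. Their counts, medians and adjusted p-values in both comparisons are therefore descriptions only. For TAC, 23 of these genes were tested, with edgeR. The criterion was met by 5 with a higher level in TAC, beside the 11.4% of all genes given above, and by 2 with a lower level, beside 12.6%. With library totals, 1 was higher and 6 were lower, while over all genes the split moved from 67 higher and 74 lower to 20 higher and 175 lower. For TAC, each library-totals value also lacks TAC library 4. With TMM and without that library, 61 of all genes were higher and 82 lower, and 5 and 3 of the list genes. Leaving out that library alone thus moved these counts little, and most of the shift came with the scaling. The receptors of interleukin 6 were among the higher genes. Il6ra, the ligand-binding chain, was counted 37, 29 and 31 times in sham but 2514, 237 and 693 times in TAC libraries 1, 2 and 4. Every TAC library was far above the sham libraries, with a log2 fold change of 5.05 (SE 0.83, adjusted p = 0.00664) that lay between 3.73 and 5.53 when 1 library was left out. Il6st, the shared signalling chain gp130, rose by a log2 fold change of 1.34 (SE 0.21, adjusted p = 0.00608). The other 4 upstream genes in the table, Il1r1, Il1rap, Lifr and Tnfrsf1a, did not meet the criterion, with values from 0.09 for Lifr to 0.66 for Tnfrsf1a. The median over the 6 was 0.55, beside 0.03 over all genes. With library totals Il6ra was at 4.67 and Il6st at 0.58, short of the criterion, where the median of all genes was -0.63.

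Of 43 other positive acute-phase genes, 9 were in the TAC table, and 2 of them rose. Lrg1, a glycoprotein induced with acute-phase proteins, had a log2 fold change of 1.20 (SE 0.30, adjusted p = 0.0206). Agt (angiotensinogen), the precursor of angiotensin, was at 1.20 (SE 0.37, adjusted p = 0.0385), but at 0.69 without TAC library 2, where it no longer met the criterion. The complement genes C3 (0.23), C4b (0.41), Cfb (-0.27) and Serping1 (-0.19) did not meet it, nor did Lbp (-0.09) and Vwf (0.83). With library totals, without TAC library 4, Cfb was at -1.21 and met it as lower. That library had the highest Cfb of the TAC group, at 74.1 normalized counts beside 48.4 and 42.1. With TMM, however, Cfb did not meet the criterion in the fit without that library. The median of the 9 was 0.41, and with library totals it was -0.32, with Lrg1 at 0.48 and Agt at 0.78, both short of the criterion. Neither of the 2 negative acute-phase genes met the criterion: Trf (transferrin) was at 0.29, and Alb was at 3.76 (SE 1.91) with its high value in TAC library 4 alone. Alb met it when any 1 TAC library was left out, at -3.70 without library 4 and as high as 4.33 without another. With library totals, where library 4 is absent, Alb was at -4.26 and met it as lower.

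Of the 4 binding partners tested after TAC, 1 met the criterion, with a lower level. C1qc, a chain of the complement C1q that Ptx3 binds, fell by 1.41 on the log2 scale (SE 0.24, adjusted p = 0.00664), while C1qa (-0.89) and C1qb (-0.58) did not meet the criterion. C1qa met it, at down to -1.07, without sham library 1 or TAC library 2. With library totals C1qa (-1.42) and C1qb (-1.28) both met it. The chains of C1q are also in the macrophage marker list given above, which was lower in TAC. Tfrc, the transferrin receptor and the single gene of 14 for iron and copper handling in the table, fell by 1.72 (SE 0.55, adjusted p = 0.0475), with a range of -2.44 to -1.14 when 1 library was left out. The lipocalin Apod, the single one of 10 other lipocalins in the table, rose by 1.48 (SE 0.35, adjusted p = 0.0181), and was at 0.92 without TAC library 1, where it no longer met the criterion. With library totals C1qc was at -1.94, Tfrc at -2.12 and Apod at 0.99, the last short of the criterion. None of the 20 signalling and transcription factor genes of the response has a row in the table.

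**Figure D5:**
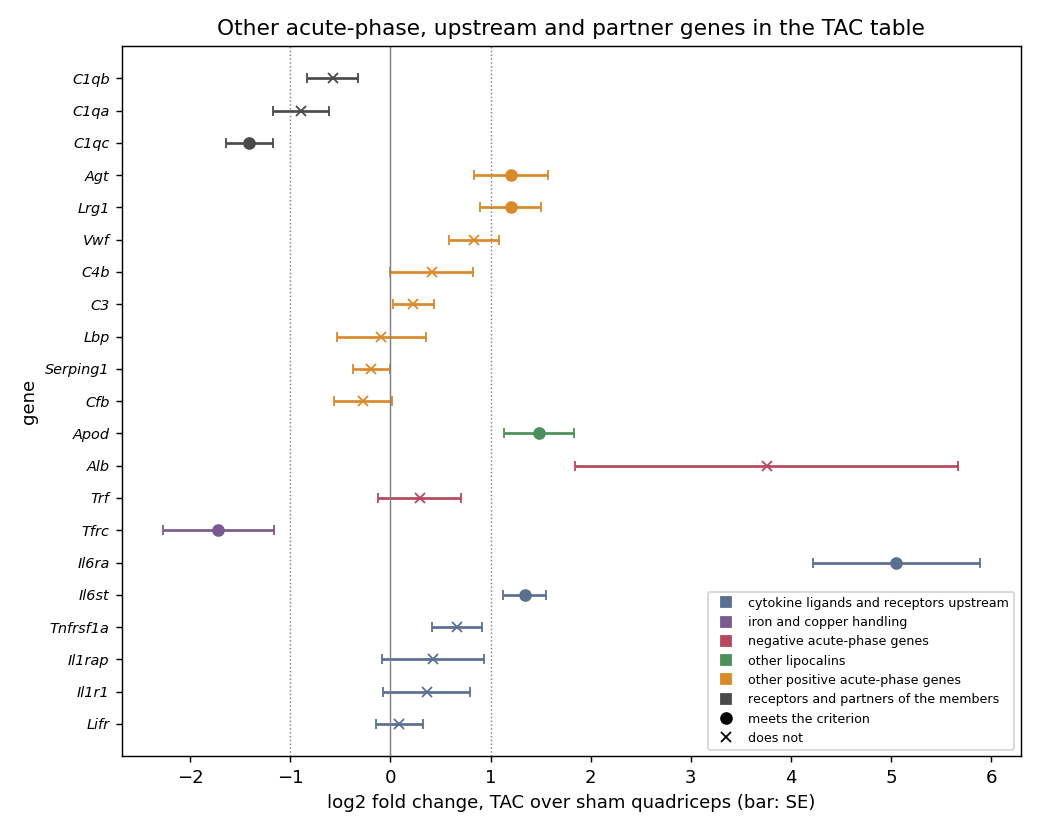
Log2 fold change (bar SE) of TAC over sham quadriceps for 21 of the 23 genes around the members, coloured by list, with circles for genes that met the criterion and crosses for the others. Il6ra at 5.05 and Il6st at 1.34 head the upstream receptors, and C1qc (-1.41) and Tfrc (-1.72) are the 2 lower genes.

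Between sham quadriceps and sham heart, 95 genes of the lists were tested, of which 12 were higher and 11 lower in quadriceps by these limits, beside the 7.0% and 8.64% of all transcripts given above. With library totals 8 were higher and 22 lower. Of 24 other positive acute-phase genes tested, 4 were higher and 6 lower. The largest of each were members of the same serpin cluster as Serpina3n. Serpina3k had 23 counts in quadriceps and 0 in heart, at least 15.7-fold higher with TMM, and 9.35-fold with library totals, taking 3 counts over the heart group as the floor (adjusted p = 0.00271). Serpina3h, a noncoding transcript, had 4 counts in quadriceps and 266 in heart, a ratio of 32.5 in favour of heart with an exact 95% interval of 12.5 to 120 with TMM, and 54.5 with library totals (adjusted p = 6.91e-06). Among 7 negative acute-phase genes 2 were higher, and Alb, with 99 counts against 0, was at least 67.6-fold higher with TMM and 40.2-fold with library totals (adjusted p = 0.0011). Of 13 upstream genes 1 was lower, Tgfb1, a cytokine of tissue repair, at a log2 fold change of -2.95 (SE 0.16, adjusted p = 3.77e-07).

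Of the 20 signalling genes 2 were higher in quadriceps, led by Per1, a clock gene that glucocorticoids induce, at 2.65 (SE 0.27, adjusted p = 2.17e-05). Of 14 partners tested, 2 were lower and 1 was higher, the pentraxin Ptx4, with 42 counts against 4 and a ratio of 21.5 with TMM and 12.8 with library totals (exact 95% interval with TMM 7.80 to 82.5, adjusted p = 0.00017). Among 14 iron and copper genes, 2 were higher and 1 lower. The ferroxidase relative Hephl1 had 38 counts against 4 and a ratio of 19.4 with TMM and 11.6 with library totals (exact 95% interval with TMM 7.002 to 75.0, adjusted p = 0.00171), and the copper transporter Atp7b had 0 counts against 155, at least 25.2-fold lower with TMM and 42.4-fold with library totals (adjusted p = 0.00268). Of 4 other lipocalins tested, Apod was higher at 2.66 (SE 0.12, adjusted p = 1.09e-07). Ptgds, the lipocalin-type prostaglandin D synthase, had 0 counts against 9167, at least 1493-fold lower with TMM and 2506-fold with library totals (adjusted p = 2.67e-08). These tissue differences stood in every fit without 1 library in which the gene could be tested. With library totals Per1 (1.88) and Apod (1.90) fell short of the criterion, and the others met it. The fit could not test Serpina3k or Alb without sham quadriceps library 1 or 2, because a single library then passed the count minimum.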

How the data were processed

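RNA sequencing was used in 9 libraries: 3 each of sham heart, sham quadriceps and TAC quadriceps, described in the study as biological replicates. The authors isolated mRNA, made ScriptSeq libraries, sequenced 50 cycles single-end, trimmed with Trim Galore!, and used STAR with mm10. The authors deposited Rsubread counts, not normalized, for each RefSeq transcript, together with RPKM values. How reads with several matches, or the strand, were treated is not given in the sources used here. The TAC table holds 587 secreted-protein genes and 35745 transcripts are in the heart table. Sham quadriceps counts are the same in both. The deposited columns of the authors' own comparisons (fold changes, F values, p-values, false discovery rates) were not used. Another column of a single library, the RPKM of TAC library 4, was left unused (1 in all), since its number matches no label.

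Counts were tested with edgeR 4.0.16 (quasi-likelihood, TMM, Benjamini-Hochberg adjustment over the whole table) in R 4.3.3, where at least 2 libraries exceeded 5 counts, which left 586 genes and 24280 transcripts. The SE is the absolute log2 fold change divided by the square root of F. Library totals were recovered from counts, lengths and RPKM. The criteria are those of the study, except that between the tissues its limits for higher levels were also applied here to lower ones. Alternatives were DESeq2 1.42.0, its size factors, library totals, other filters, an adjusted p, the replicate block, 1 transcript per gene, a joint fit of all 9 libraries and fits without each library. The procedure was tested on simulated data. Same-group libraries differed beyond sampling noise (chi-square over its degrees of freedom 7.1 or more), so none was counted as a duplicate.

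The members and the gene lists were chosen with earlier results of these data known, and the motifs after the expression values had been seen. Named are all members, the 5 genes most like Lcn2, list genes that met the TAC criterion (at most 4 a list), and the largest difference of each list in each direction between tissues; other genes are named as markers, as remaining list members or as near copies, some of them after their values were seen. Of the list genes, 2 are counted but not reported here by name. Positions and exons are from GENCODE vM21. Promoters are from RefSeq (GRCm38.p6). Tables and figures were made in Python 3.11.15 (scipy 1.17.1, pandas 2.3.3, numpy 2.4.6, matplotlib 3.10.9).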

Additional observations from a re-analysis of the deposited data

How the results depend on the processing

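The count of members that met the TAC criterion was 1 (Lcn2) under every alternative except 2 of them. It was 0 of 4 with at least 10 counts in every library, a filter that Lcn2 fails by its sham counts, and 2 without TAC library 2, where Ptx3 was also lower, so it ranged from 1 to 2 when 1 library was left out. Between the tissues the count of members was 3 to 5, and it was 3 only in fits that could not test Orm1. The log2 fold change of Lcn2 after TAC ranged from 3.61 to 4.32. That of Ptx3 ranged from -2.58 to -0.77, and Hp, Orm1 and Serpina3n took both signs.

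Between the tissues, 3796 transcripts met the criterion. There were 16182 with an adjusted p under 0.05 alone, which drops the fold criterion, 1700 with at least 10 counts in every library and 2412 of 14906 with 1 transcript per gene, which tests fewer rows. With library totals 5307 met it, 1136 higher and 4171 lower in quadriceps, beside 1699 and 2097 with TMM. For list genes between the tissues, 23 became 67 with the adjusted p and 8 with the stricter filter, and with library totals 8 were higher and 22 lower beside 12 and 11. In the TAC table list genes numbered 7 to 9 under all alternatives, and all genes 119 to 195.

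Replicate numbers are shared between groups, but same-numbered libraries did not deviate together, with correlations of -0.053 to 0.064. Between sham and TAC the value is the same for both pairs by construction, as only libraries 1 and 2 were used. Whether same-numbered heart and quadriceps libraries came from the same animal is not given, and correlations across tissues cannot tell. With the replicate block, 159 secreted-protein genes met the TAC criterion (libraries 1 and 2 only) beside 141, and 3785 transcripts between the tissues beside 3796. The member counts stayed at 1 and 4. List genes numbered 9 beside 7 after TAC and 23 in both fits between the tissues.

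Depth limits Lcn2 in sham quadriceps (6 to 9 counts), Orm1 in heart (0 or 1) and Saa3 (at most 14), and intervals there cover counting error only.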
